A study of Mus musculus with 8 samples.

Results

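The catenins and the desmosome genes described here are 10 genes named by symbol, 6 of the catenin and p120-like armadillo families (*Ctnnb1*, *Jup*, *Ctnna1*, *Ctnnal1*, *Ctnnd1* and *Pkp4*) and 4 that encode other desmosome parts (*Dsg2*, *Dsc2*, *Dsp* and *Pkp2*). All 10 were found by symbol among the 42256 gene identifiers of the count table, and all 10 were among the 15852 genes that passed the filter on low counts. They were picked by name and family, with earlier results of these data known.

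The kidneys came from 8 adult males of a mixed 129S1/Sv and C57BL/6 background, 4 labelled CDH11-/- and 4 labelled CDH11+/+, and their RNA was sequenced. Both genotypes received aristolochic acid, a plant toxin that injures the renal tubule, at 3 mg/kg daily for 5 days, and kidneys were taken 2 weeks after the last dose. No uninjured kidneys were analysed here, so the comparison is of injured kidneys labelled as lacking cadherin-11 with injured kidneys that have it. The title of the series names another kidney injury (Unx/AngII), and the labels of the mice were followed.

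Cadherins join neighbouring epithelial cells, and catenins tie them to the cytoskeleton. At the adherens junction, β-catenin or plakoglobin binds the tail of a classical cadherin such as E-cadherin or cadherin-11, α-catenin links that complex to actin, and p120-catenin holds the cadherin at the surface. At the desmosome, desmogleins and desmocollins are the cadherins, plakoglobin and plakophilins bind their tails, and desmoplakin anchors the plaque to keratin filaments. β-Catenin that is not held at the membrane is degraded, or enters the nucleus as the transcriptional effector of Wnt signalling.

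The 10 genes together took 0.167% to 0.184% of the counts of a library. Total counts ran from 12966177 to 18539479 in CDH11-/- libraries and from 10675309 to 13885009 in CDH11+/+ libraries, and the means differed with p = 0.0857 in a two-sided exact permutation test whose smallest possible p is 0.0286. The library labelled CDH11+/+ replicate 1 stood apart: it was the shallowest, it had the lowest quality weight of the 8 in limma-voom (0.473), and its proximal tubule marker score lay among those of the CDH11-/- libraries. Where leaving it out changed the call of a gene named below, the value without it is given as well. *Cdh11*, the gene the mice are labelled for, had 89.9, 91.3, 112.5 and 117.2 CPM (counts scaled by library size) in libraries labelled CDH11-/-, against 75.6, 58.0, 61.7 and 59.0 CPM in CDH11+/+ libraries. The gene was higher in every library labelled CDH11-/- than in any CDH11+/+ library, as were 3.59% of all genes tested. Its log2 fold change was 0.69 ± 0.11 (SE), with an adjusted p of 0.0243 by edgeR's quasi-likelihood test with Benjamini-Hochberg adjustment. That call was lost when CDH11-/- replicate 3 or 4 or CDH11+/+ replicate 2, 3 or 4 was left out (adjusted p up to 0.112, edgeR). Without CDH11+/+ replicate 1 the log2 fold change was 0.80 (adjusted p = 0.00242, edgeR), and with the authors' factors it was 0.24. The sources used here do not say which exons the allele lacks, and a count over the whole gene does not check a partial deletion. Genotype below means the label.

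Promoters are shown for the members with the smallest and the largest SD of log2 CPM within genotypes (*Ctnnb1* and *Pkp4*). That of *Dsp*, the desmosome member with a matched window, is shown as well. Whether promoter sequence bears on that spread was not tested. The windows are the 250 bases before an annotated RefSeq transcription start (GRCm38.p6), read 5′ to 3′ on the strand of the gene. The *Ctnnb1* window is chr9:120933328-120933577 (plus strand), the *Pkp4* window is chr2:59160600-59160849 (plus strand), and the *Dsp* window is chr13:38151044-38151293 (plus strand). Capitals mark the motifs searched on both strands: TATAAA (the TATA box), CCAAT (the CCAAT box), GGGCGG (the GC box, whose reverse complement is CCGCCC) and CAGGTG (an E-box).
Ctnnb1: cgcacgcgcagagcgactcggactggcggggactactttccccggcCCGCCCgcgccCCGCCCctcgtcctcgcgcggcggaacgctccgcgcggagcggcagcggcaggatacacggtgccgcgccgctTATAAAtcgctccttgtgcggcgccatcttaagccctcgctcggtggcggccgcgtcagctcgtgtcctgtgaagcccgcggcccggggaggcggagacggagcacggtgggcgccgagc
Pkp4: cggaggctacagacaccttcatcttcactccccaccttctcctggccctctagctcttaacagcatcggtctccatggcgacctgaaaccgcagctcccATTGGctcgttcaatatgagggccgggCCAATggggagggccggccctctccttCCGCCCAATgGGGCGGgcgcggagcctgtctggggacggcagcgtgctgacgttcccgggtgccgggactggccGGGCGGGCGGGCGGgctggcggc
Dsp: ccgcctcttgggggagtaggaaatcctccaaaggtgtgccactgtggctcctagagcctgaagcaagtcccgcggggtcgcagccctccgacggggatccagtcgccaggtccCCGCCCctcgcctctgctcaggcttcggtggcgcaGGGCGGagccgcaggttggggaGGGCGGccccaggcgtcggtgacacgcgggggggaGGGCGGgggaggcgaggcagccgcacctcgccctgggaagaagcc
The *Ctnnb1* window shown held TATAAA and GC boxes, with 74.4% G and C and 43 CpG dinucleotides. Another *Ctnnb1* window, chr9:120933150-120933399, held CCAAT and GC boxes and no TATAAA. The *Pkp4* window held CCAAT and GC boxes, some of them overlapping, and the *Dsp* window held GC boxes, with 72.4% G and C and 22 CpG. Among 32851 RefSeq windows of the same length, TATAAA was found in 12.4%, CCAAT in 33.8%, GGGCGG in 32.7% and CAGGTG in 17.2%, with a median of 52.4% G and C and 6 CpG. RefSeq windows were matched for 6 of the 10 genes (*Ctnnal1*, *Ctnnb1*, *Ctnnd1*, *Dsp*, *Jup* and *Pkp4*), 9 windows in all. Of these, 6 held GGGCGG, 5 held CCAAT, 2 held TATAAA (*Ctnnb1* and *Ctnnd1*) and 1 held CAGGTG (a second start of *Pkp4*). A match is a description of letters and not of a bound site.

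To compare levels between genes, CPM was divided by the length of all exons in kilobases (RPKM). The length of a gene is the same in every library, so agreement between libraries does not check the length used. *Ctnnb1* had the highest level per length, 101 ± 3.44 RPKM over the 8 libraries (SD), and *Ctnna1* came next with 73.5 ± 2.79 RPKM. *Pkp4* followed with 38.7 ± 5.28, *Jup* with 24.8 ± 1.71 and *Ctnnd1* with 22.2 ± 0.948 RPKM. The desmosome genes were lower: *Dsp* had 8.58 ± 0.809, *Pkp2* 6.18 ± 0.378, *Dsg2* 5.43 ± 0.858 and *Dsc2* 1.37 ± 0.120 RPKM. *Ctnnal1* (5.33 ± 0.355 RPKM) lay between *Dsg2* and *Dsc2*. Neighbours in this order did not overlap over the 8 libraries except for 3 pairs: *Jup* and *Ctnnd1* overlapped, although *Jup* was above *Ctnnd1* in 8 of 8 libraries. *Pkp2* and *Dsg2* overlapped, with *Pkp2* above in 7 of 8, as did *Dsg2* and *Ctnnal1*, with *Dsg2* above in 5 of 8.

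Of the desmogleins and desmocollins, the kidneys carried 1 set of isoforms. *Dsg2*, *Dsc2*, *Pkp2*, *Pkp3* and *Dsp*, the isoforms that simple epithelia use, were detected in every library, and *Pkp3*, a plakophilin outside the 10 genes, had 29.6 ± 1.61 CPM in CDH11-/- libraries and 29.1 ± 1.71 CPM in CDH11+/+ libraries. The desmoglein, desmocollin and plakophilin isoforms of stratified epithelia were at or near 0: *Dsg1a*, *Dsg1b*, *Dsg1c*, *Dsg3*, *Dsg4*, *Dsc1*, *Dsc3* and *Pkp1* were all under 1 CPM in every library. Among these 8, the highest value was that of *Pkp1* (0.792 CPM in a CDH11-/- library), and *Dsc1* had 0 counts in all 8 libraries, where a count of 0 allows up to 3 counts, or 0.158 to 0.276 CPM depending on the library. *Dsg1a*, *Dsg1b* and *Dsg1c* are closely related copies whose reads may have been split between them. The α-catenins of neurons and heart, *Ctnna2* and *Ctnna3*, reached at most 0.712 CPM. The ratio of *Pkp2* to *Pkp3* per length was 0.757 ± 0.0277 in CDH11-/- libraries and 0.767 ± 0.0596 in CDH11+/+ libraries, so the balance of the plakophilins differed by less than its spread.

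**Figure D1:**
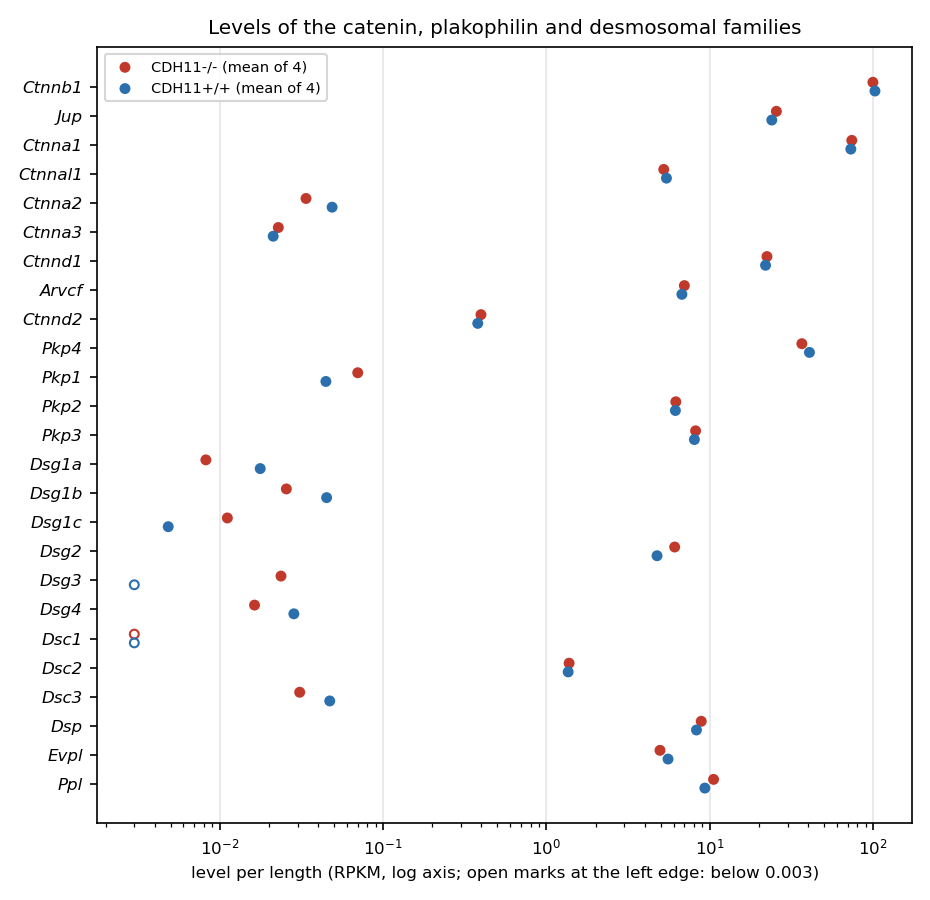
Level per length (RPKM, log axis) of the α-, β- and p120-like catenins, plakophilins, desmogleins, desmocollins, *Dsp*, *Evpl* and *Ppl*, as the mean of the 4 libraries of each genotype. The 10 genes lie between 1.37 and 101 RPKM when averaged over the 8 libraries, *Evpl* at 5.25 and *Ppl* at 9.94 RPKM. The desmoglein, desmocollin and plakophilin isoforms of stratified epithelia lie near the left edge, where open marks stand for values too low for the axis.

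Between genotypes, none of the 10 genes passed the threshold of an adjusted p of 0.05 in edgeR's quasi-likelihood test, and 1 of the 10, *Dsg2*, passed an unadjusted p of 0.05. Over all 15852 genes tested, 114 passed the adjusted threshold (0.719%), 59 higher and 55 lower in CDH11-/- libraries, and 2232 passed the unadjusted one (14.1%). The median log2 fold change of the 10 genes was 0.02, against -0.01 over all genes tested, with 7 positive and 3 negative; the signs of *Ctnnb1*, *Ctnnal1*, *Dsc2* and *Pkp2* turned under at least 1 alternative. The median size of the change regardless of sign was 0.05 for the 10 genes and 0.11 for all genes tested. Levels of the 10 ran from percentile 24.3 (*Dsc2*) to 99.0 (*Ctnnb1*) of all genes tested. The size of the change was not compared with genes of like level. The 95% confidence intervals of all 10 excluded a 1.5-fold difference in either direction, and those of 8 excluded a 1.25-fold difference, the exceptions being *Dsg2* and *Pkp4*. Nothing in the labels says that the mice came from separate litters or cages, and the p-values measure the spread between these 8 kidneys.

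**Figure D2:**
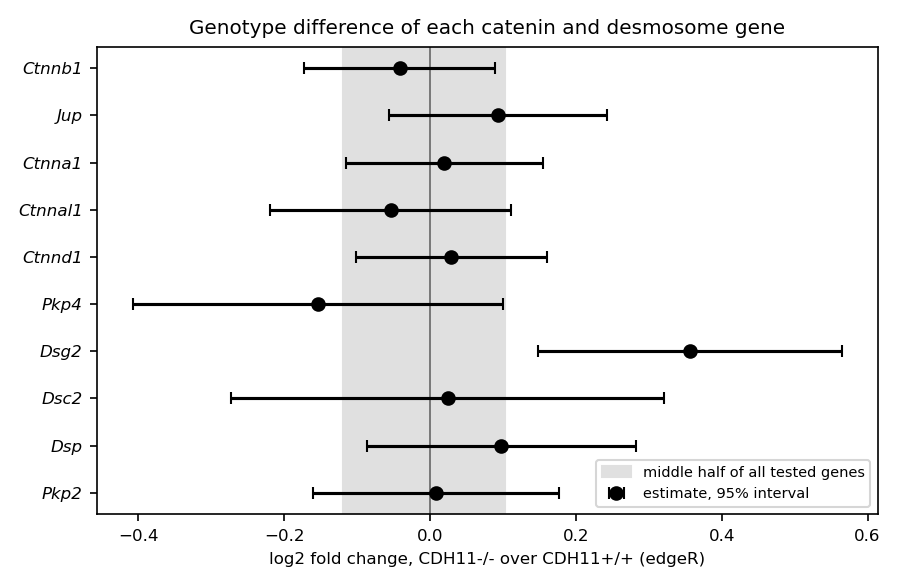
Log2 fold change (CDH11-/- over CDH11+/+) of each of the 10 genes with its 95% confidence interval, over a grey band that spans the quartiles of all genes tested (-0.12 to 0.10). *Dsg2* is the only one whose interval (0.15 to 0.57) does not include 0, and 8 of the 10 estimates lie inside the band.

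β-Catenin and plakoglobin bind the cadherin tail directly. *Ctnnb1* (ENSMUSG00000006932, chromosome 9, 120929216 to 120960507, plus strand, GRCm38) had 503.6, 543.9, 528.9 and 493.5 CPM in CDH11-/- libraries, against 533.9, 543.0, 527.0 and 527.0 CPM in CDH11+/+ libraries. The CDH11+/+ values lay inside the range of the CDH11-/- values, and the means were 517.5 ± 23.1 CPM in CDH11-/- libraries and 532.7 ± 7.59 CPM in CDH11+/+ libraries (SD, n = 4 each). The log2 fold change was -0.04 ± 0.06 (SE), with a 95% confidence interval of -0.17 to 0.09 (adjusted p = 0.799, edgeR). It turned to 0.0071 when libraries were scaled by their total counts alone. Its within-genotype SD of log2 CPM, 0.0476, was at percentile 2.04 of all genes tested, the smallest of the 10. The level of *Ctnnb1* was at percentile 99.0 of the same genes, and its SD was not compared with genes of like level. Genes on the other strand (*Ulk4* and *4930593C16Rik*) and a microRNA gene (*Mir7090*) overlap *Ctnnb1* and had 44 to 90 counts together per library, against at least 5786 counts of *Ctnnb1*. The genes that overlap *Ctnna1*, *Ctnnd1*, *Dsg2* and *Dsp* had 0 to 7 counts in a library.

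*Jup* (ENSMUSG00000001552, chromosome 11, 100368958 to 100397763, minus strand) encodes plakoglobin, the catenin shared by adherens junctions and desmosomes. It had 179.6, 152.0, 172.2 and 154.4 CPM in CDH11-/- libraries, against 157.6, 148.3, 151.3 and 159.8 CPM in CDH11+/+ libraries. Of the CDH11-/- libraries, 2 lay above and 2 within the CDH11+/+ range, for a log2 fold change of 0.09 ± 0.07 (95% confidence interval -0.06 to 0.24, adjusted p = 0.582, edgeR). The ratio of *Ctnnb1* to *Jup* per length was 3.92 ± 0.399 in CDH11-/- libraries and 4.29 ± 0.193 in CDH11+/+ libraries, and the ranges overlapped. *Ctnnb1* had 2.42 ± 0.174 times the level per length of *Cdh1*, which encodes E-cadherin, in CDH11-/- libraries, and 2.38 ± 0.0621 times in CDH11+/+ libraries.

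α-Catenin and p120-catenin complete the cadherin complex. *Ctnna1* (ENSMUSG00000037815, chromosome 18, 35118859 to 35254779, plus strand) averaged 475.5 ± 18.6 CPM in CDH11-/- libraries and 469.0 ± 19.4 CPM in CDH11+/+ libraries. The range was 457.3 to 496.6 CPM in CDH11-/- libraries and 450.8 to 496.4 CPM in CDH11+/+ libraries. The log2 fold change was 0.02 ± 0.06, and its interval ran from -0.12 to 0.15 (adjusted p = 0.920, edgeR). *Ctnnd1* (ENSMUSG00000034101, chromosome 2, 84600071 to 84650765, minus strand), which encodes p120-catenin, averaged 163.9 ± 7.45 CPM in CDH11-/- libraries and 160.6 ± 7.05 CPM in CDH11+/+ libraries, a log2 fold change of 0.03 ± 0.06 (adjusted p = 0.869, edgeR). Both had small within-genotype SDs of log2 CPM, 0.0576 for *Ctnna1* and 0.0643 for *Ctnnd1*, against a median of 0.156 over all genes tested. Their levels were at percentiles 98.8 and 93.5 of the same genes, and the SDs were not compared with genes of like level. The ratio of *Ctnnb1* to *Ctnna1* per length was 1.35 ± 0.0820 in CDH11-/- libraries and 1.41 ± 0.0563 in CDH11+/+ libraries, again with overlapping ranges.

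*Ctnnal1* (ENSMUSG00000038816, chromosome 4, 56810935 to 56865188, minus strand) encodes α-catulin, a relative of α-catenin and vinculin. It had 41.6, 42.4, 37.2 and 39.0 CPM in CDH11-/- libraries, against 44.6, 38.4, 44.0 and 39.4 CPM in CDH11+/+ libraries, and the log2 fold change was -0.05 ± 0.08 (adjusted p = 0.792, edgeR). In the authors' normalized table the same gene had 644, 547, 579 and 577 units in CDH11-/- libraries, against 630, 481, 569 and 504 in CDH11+/+ libraries, and the log2 fold change was 0.11 with limma on those values. The sign therefore depended on which deposited table was used, and in neither did *Ctnnal1* pass the threshold. The authors' factor between the tables differed between genotypes for *Ctnnal1* by 0.16 on the log2 scale, against a median of 0.31 over 14733 genes. That distance from the median was larger than for 91.1% of those genes.

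**Figure D3:**
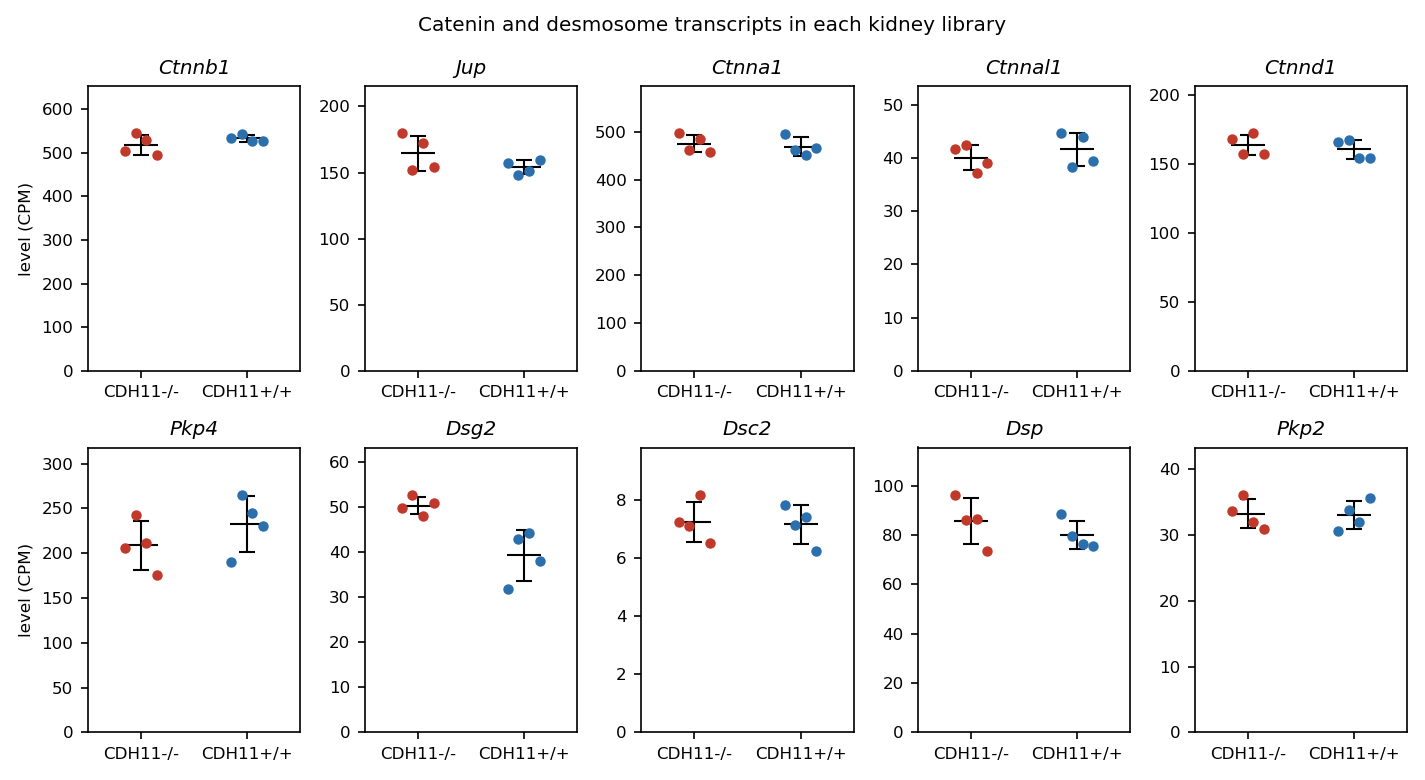
Level in CPM of each of the 10 genes in the 4 CDH11-/- libraries (left of each panel) and the 4 CDH11+/+ libraries (right), with a line at each mean. Only for *Dsg2* do all CDH11-/- values (48.1 to 52.8 CPM) lie above all CDH11+/+ values (31.9 to 44.3 CPM).

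Of the desmosomal cadherins, *Dsg2* was the member with the clearest difference. *Dsg2* (ENSMUSG00000044393, chromosome 18, 20558074 to 20604521, plus strand) encodes desmoglein 2, the desmoglein of simple epithelia. It had 49.8, 52.8, 48.1 and 51.0 CPM in CDH11-/- libraries, against 31.9, 43.0, 44.3 and 38.0 CPM in CDH11+/+ libraries. All 4 CDH11-/- libraries lay above all 4 CDH11+/+ libraries, which was so, in that direction, for 3.59% of all genes tested, and for 7.33% in either direction. The spread was also unequal: the means were 50.4 ± 1.95 CPM in CDH11-/- libraries and 39.3 ± 5.62 CPM in CDH11+/+ libraries.

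The fold for *Dsg2* was 1.28, with a 95% confidence interval of 1.11 to 1.48, or a log2 fold change of 0.36 ± 0.10 (SE). The unadjusted p was 0.00301, which ranked 379th of the 15852 genes, and the adjusted p was 0.126 (edgeR), so *Dsg2* did not pass the threshold. DESeq2 gave *Dsg2* an adjusted p of 0.0312 and limma-voom with quality weights 0.0457, tests by which 2.79% and 4.28% of all genes passed. Without CDH11+/+ replicate 1, which had the lowest *Dsg2* of the 8, the log2 fold change was 0.28 and the adjusted p 0.0434 (edgeR), and 6.25% of all genes passed in that fit. The estimate was positive under all 16 alternatives, from 0.28 to 0.42, and the adjusted p ranged from 0.0312 to 0.313. In the authors' normalized table *Dsg2* had 687, 749, 688 and 698 units in CDH11-/- libraries, against 437, 598, 601 and 518 in CDH11+/+ libraries, so the genotypes did not overlap there.

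**Figure D4:**
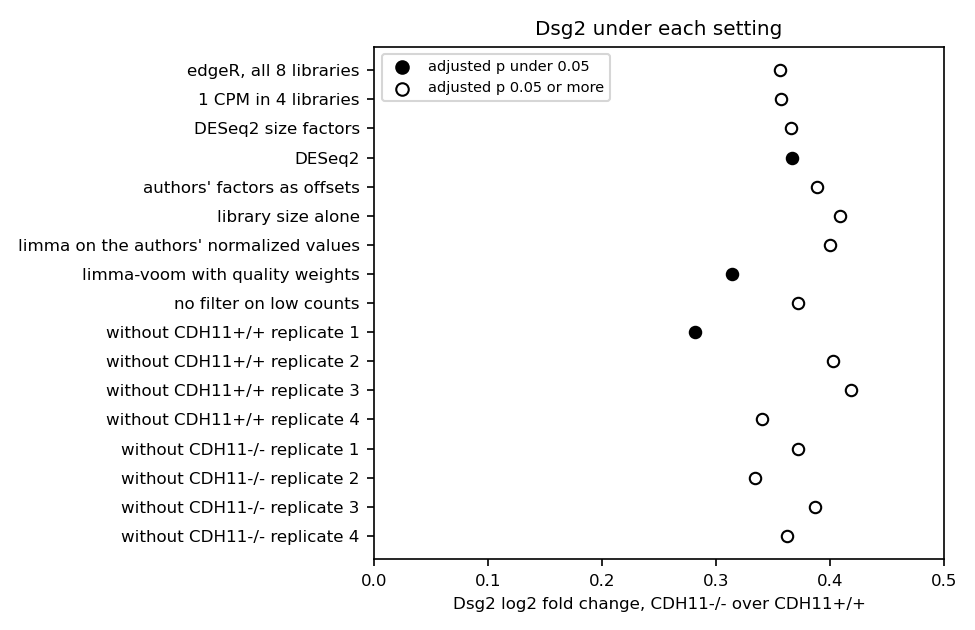
Log2 fold change of *Dsg2* (CDH11-/- over CDH11+/+, horizontal axis) in the fit of all 8 libraries and under each of 16 alternatives (1 line each), with filled marks for an adjusted p under 0.05. All estimates lie between 0.28 and 0.42, and 3 alternatives are past the threshold.

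*Dsc2* (ENSMUSG00000024331, chromosome 18, 20030633 to 20059554, minus strand) encodes desmocollin 2, the desmocollin found beside desmoglein 2 in simple epithelia, and its libraries overlapped between genotypes. It had 7.25, 7.11, 8.18 and 6.51 CPM in CDH11-/- libraries, against 7.84, 7.14, 7.44 and 6.25 CPM in CDH11+/+ libraries. These values rest on 81 to 155 counts per library, the fewest of the 10 genes, and the log2 fold change was 0.02 ± 0.14 with the widest interval, -0.27 to 0.32 (adjusted p = 0.956, edgeR). Its sign turned when CDH11-/- replicate 3 or CDH11+/+ replicate 4 was left out. The ratio of *Dsg2* to *Dsc2* per length was 4.38, 4.73, 3.76 and 4.99 in CDH11-/- libraries, against 2.60, 3.84, 3.80 and 3.88 in CDH11+/+ libraries. The ranges of that ratio overlapped, in that the CDH11-/- library with 3.76 lay below 3 of the 4 CDH11+/+ libraries.

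Transcripts of the plaque proteins overlapped between genotypes. *Dsp* (ENSMUSG00000054889, chromosome 13, 38151294 to 38198577, plus strand), which encodes desmoplakin, had 96.3, 86.2, 86.5 and 73.5 CPM in CDH11-/- libraries, against 88.4, 79.8, 76.5 and 75.6 CPM in CDH11+/+ libraries. Both the highest and the lowest of the 8 values were in CDH11-/- libraries, and the log2 fold change was 0.10 ± 0.08 (95% confidence interval -0.09 to 0.28, adjusted p = 0.653, edgeR). *Pkp2* (ENSMUSG00000041957, chromosome 16, 16213318 to 16272712, plus strand), which encodes the plakophilin of heart and simple epithelia, averaged 33.2 ± 2.22 CPM in CDH11-/- libraries and 33.0 ± 2.16 CPM in CDH11+/+ libraries. Its log2 fold change was 0.01 ± 0.08 (adjusted p = 0.977, edgeR), and the sign turned in 4 of 16 alternatives, within a range of -0.034 to 0.058. The ratio of *Dsp* to *Dsg2* per length was 1.46 ± 0.182 in CDH11-/- libraries and 1.78 ± 0.401 in CDH11+/+ libraries, and that of *Dsp* to *Pkp2* was 1.43 ± 0.132 in CDH11-/- libraries and 1.35 ± 0.178 in CDH11+/+ libraries, all with overlapping ranges.

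Within genotypes *Pkp4* had the largest spread of the 10. *Pkp4* (ENSMUSG00000026991, chromosome 2, 59160850 to 59355208, plus strand) encodes plakophilin 4 (p0071), a p120-like armadillo protein of adherens junctions and desmosomes. It had 205.9, 242.4, 211.8 and 175.7 CPM in CDH11-/- libraries, against 189.9, 264.9, 244.5 and 230.7 CPM in CDH11+/+ libraries. The lowest value was in a CDH11-/- library and the highest in a CDH11+/+ library, but CDH11+/+ replicate 1 was the second lowest of the 8. The log2 fold change was -0.15 ± 0.11 (95% confidence interval -0.41 to 0.10, adjusted p = 0.592, edgeR), and -0.23 without CDH11+/+ replicate 1 (adjusted p = 0.189, edgeR). It was also -0.23 without CDH11-/- replicate 2 (adjusted p = 0.361, edgeR), but -0.07 without CDH11-/- replicate 4 (adjusted p = 0.876, edgeR). Its within-genotype SD of log2 CPM was 0.198, at percentile 62.1 of all genes tested, while its level was at percentile 96.0.

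Across the 8 kidneys the level of *Pkp4* ran with marker genes of the proximal tubule and distal nephron and against those of leukocytes and of fibroblasts and mural cells. For each of 8 marker lists and 4 lists of junction and β-catenin genes, a score was taken. It was the mean log2 CPM of the genes, each centred on its own mean. *Pkp4* was higher where proximal tubule genes were higher (Pearson r = 0.91, Spearman rho = 0.95, exact permutation p = 0.00181 for r, n = 8) and lower where leukocyte genes were higher (r = -0.93, rho = -0.95, exact permutation p = 0.000595). Without the 2 libraries farthest from the median score, r was 0.83 for proximal tubule genes and -0.83 for leukocyte genes. The relations with distal nephron genes (r = 0.89, rho = 0.88, exact permutation p = 0.00377) and with fibroblast and mural genes (r = -0.89, rho = -0.88, exact permutation p = 0.00422) were of nearly the same size, and r was 0.74 and -0.79 without the 2 farthest libraries. Among 120 relations computed in this family, 0 had a Benjamini-Hochberg adjusted p for r under 0.05; by exact permutation the adjusted p was 0.109 for proximal tubule, 0.0714 for leukocyte and 0.126 for both other lists. Within genotypes, described over 4 libraries each, *Pkp4* had r = 0.999 in CDH11-/- and 0.993 in CDH11+/+ libraries with proximal tubule genes, and -0.960 in CDH11-/- and -0.938 in CDH11+/+ libraries with leukocyte genes. *Dsg2* had r = -0.25 with proximal tubule genes (rho = -0.38, exact permutation p = 0.560, adjusted p = 0.790; r = -0.32 without the 2 farthest libraries). Within genotypes the sign was the opposite, with r = 0.299 in CDH11-/- and 0.908 in CDH11+/+ libraries, so the pooled value of *Dsg2* does not describe either genotype. Of the 8 marker lists, the largest pooled r of *Dsg2* by size was that with tubule injury genes, -0.79 (rho = -0.52, exact permutation p = 0.0232, adjusted p = 0.309), and it was 0.03 without the 2 farthest libraries.

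The proximal tubule score was -0.47, 0.00, -0.36 and -0.85 in CDH11-/- libraries, against -0.38, 0.99, 0.58 and 0.50 in CDH11+/+ libraries. All 16 proximal tubule markers had negative log2 fold changes (median -0.75), 12 with an unadjusted p under 0.05 and 0 past the adjusted threshold in edgeR, 9 in DESeq2 and 5 in limma-voom. Over all genes tested, 14.1% had an unadjusted p under 0.05, and 2.79% and 4.28% passed in DESeq2 and limma-voom. The 16 markers summed to 2970 to 7114 CPM in CDH11-/- libraries and 3441 to 9338 CPM in CDH11+/+ libraries. The marker of smallest p, *Slc13a3*, a dicarboxylate transporter, averaged 42.7 ± 3.67 CPM in CDH11-/- libraries and 121.7 ± 40.7 CPM in CDH11+/+ libraries (log2 fold change -1.51 ± 0.25, adjusted p = 0.0528, edgeR, and 0.00242 without CDH11+/+ replicate 1). In the fit without that library 6.25% of all genes passed. *Slc13a3* did not pass with any other library left out (adjusted p up to 0.155, edgeR). All 9 leukocyte genes tested had positive log2 fold changes (median 0.12), 0 of them with an unadjusted p under 0.05. In whole kidney RNA, fewer cells of a type and less RNA per cell cannot be told apart, and the part of these marker shifts in the values of *Pkp4* or *Dsg2* was not tested.

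**Figure D5:**
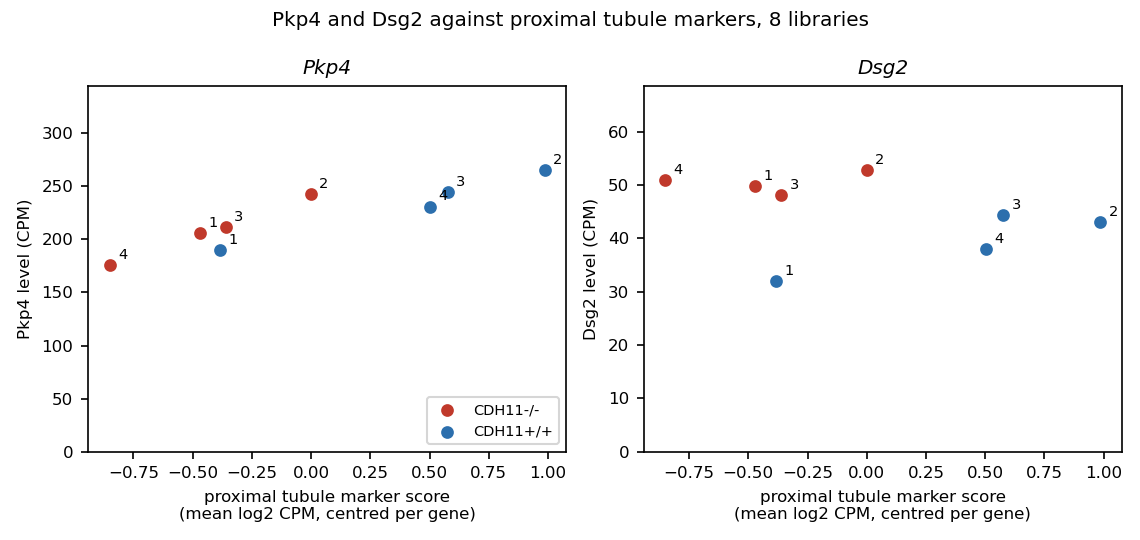
Level in CPM of *Pkp4* and of *Dsg2* (vertical axes) against the proximal tubule marker score of the same library (mean log2 CPM, centred per gene), with 1 point per library and the genotypes in different colours. *Pkp4* is higher at higher scores in both genotypes (pooled r = 0.91). *Dsg2* has a pooled r of -0.25 but r of 0.299 within CDH11-/- and 0.908 within CDH11+/+ libraries, and CDH11+/+ replicate 1, the lowest *Dsg2* value (31.9 CPM), has a score of -0.38 among the CDH11-/- libraries.

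Markers of other kidney cell types were examined as well, and no gene of any marker list was at 0 in all libraries. The 11 urothelium genes, of which 10 were tested, summed to 144.4 to 158.2 CPM in CDH11-/- libraries and 138.1 to 174.8 CPM in CDH11+/+ libraries. Of that sum, 85.7 to 92.9 CPM in CDH11-/- and 79.4 to 87.4 CPM in CDH11+/+ libraries was *Krt20*, which is also in the tubule injury list, so the sum is not a measure of urothelium alone. The 10 tested genes had a median log2 fold change of 0.42, with 3 at an unadjusted p under 0.05 and 0 past the adjusted threshold in edgeR, DESeq2 or limma-voom. The 16 distal nephron genes had a median of -0.16, with 2 at an unadjusted p under 0.05 and 0 past the adjusted threshold in edgeR, DESeq2 or limma-voom. Their gene of smallest p, *Aqp2*, the collecting duct water channel, averaged 204.9 ± 19.4 CPM in CDH11-/- libraries and 238.8 ± 28.0 CPM in CDH11+/+ libraries (adjusted p = 0.332, edgeR). Endothelial genes summed to 651 to 709 CPM in CDH11-/- libraries and 483 to 629 CPM in CDH11+/+ libraries, all 10 with positive log2 fold changes (median 0.29) and 0, 5 and 7 past the threshold in edgeR, DESeq2 and limma-voom, 7 at an unadjusted p under 0.05. Fibroblast and mural genes had a median of 0.44 (9 of 10 positive), 6 at an unadjusted p under 0.05, and 0, 3 and 4 past the threshold in edgeR, DESeq2 and limma-voom. Podocyte genes had a median of 0.28 (7 of 8 positive), 4 at an unadjusted p under 0.05, and 0, 1 and 3 past the threshold in the same tests. The 12 tubule injury genes had a median of 0.01, with 7 positive and 5 negative. Of the 12, 3 had an unadjusted p under 0.05 (0 of them higher), and 0, 2 and 2 were past the threshold in the same tests. Over all genes tested, 14.1% had an unadjusted p under 0.05. The shares past the threshold were 0.719% in edgeR, 2.79% in DESeq2 and 4.28% in limma-voom. Genes of smallest p in these lists were, with log2 fold changes and SEs, *Upk3b* of the urothelium list (0.98 ± 0.33), the endothelial VEGF receptor *Flt1* (0.42 ± 0.08), the pericyte gene *Rgs5* (0.29 ± 0.07), the podocyte gene *Nphs1* (0.57 ± 0.13), the injury marker *Vcam1* (-0.46 ± 0.10) and the B-cell gene *Cd79a* (0.69 ± 0.41). Their adjusted p in edgeR ran from 0.0508 for *Flt1* to 0.482 for *Cd79a*. *Upk3b* rested on only 10 to 44 counts per library and *Cd79a* on 5 to 33. *Flt1*, *Vcam1*, *Nphs1* and *Rgs5* passed in DESeq2 (adjusted p from 0.00205 for *Flt1* to 0.00956 for *Rgs5*) and in limma-voom (from 0.00575 for *Flt1* to 0.0243 for *Rgs5*). Without CDH11+/+ replicate 1 these 4 also passed in edgeR, with an adjusted p of 0.00418 for *Flt1*, 0.00582 for *Vcam1*, 0.0332 for *Rgs5* and 0.0351 for *Nphs1*. In that fit 6.25% of all genes passed. With any other library left out, none of these 4 passed in edgeR. The adjusted p was then up to 0.178 for *Flt1*, 0.221 for *Vcam1*, 0.239 for *Rgs5* and 0.226 for *Nphs1*. The part of these shifts in the values of the 10 genes was not tested.

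Other genes of the same junctions, keratins, and genes of β-catenin turnover and response were counted in 4 lists of 75 genes, of which 64 were tested. Of these 64, 1 was higher and 1 lower past the adjusted threshold in edgeR (against 0.372% and 0.347% of all genes tested). An unadjusted p under 0.05 was found for 12 of the 64, against 14.1% of all genes tested. Log2 fold changes were positive for 44 of the 64 (median 0.06), against 7571 of all 15852 genes tested. *Cdh11*, given above, was the higher one past the adjusted threshold, and 1 of 9 listed cadherins. *Nectin3* was the lower one, and 1 of 21 tested genes of the adherens junction plaque. *Nectin3* (ENSMUSG00000022656, chromosome 16, 46387706 to 46498525, minus strand) encodes nectin-3, an immunoglobulin-like adhesion molecule that is coupled to the cadherin complex through afadin. It fell to 65.7, 65.9, 65.7 and 59.4 CPM in CDH11-/- libraries, against 83.6, 87.5, 79.0 and 77.7 CPM in CDH11+/+ libraries. The groups did not overlap, which was so for 8 of the 64 genes and for 7.33% of all genes tested. The log2 fold change of *Nectin3* was -0.35 ± 0.06 (adjusted p = 0.0306, edgeR). The estimate stayed between -0.38 and -0.30 under 16 alternatives, but the call was lost in 10 of them (adjusted p from 0.000846 to 0.121), 7 of which left out 1 library, any of the 8 other than CDH11+/+ replicate 1.

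Of the 20 other desmosome and keratin genes, 11 were tested and 0 passed the adjusted threshold in edgeR, DESeq2 or limma-voom. An unadjusted p under 0.05 was found for 2 of the 11, against 14.1% of all genes tested. The 2 genes were *Perp*, a desmosome-associated membrane protein, and *Ppl*, which encodes the plaque protein periplakin. *Perp* averaged 93.2 ± 6.05 CPM in CDH11-/- libraries and 81.9 ± 3.62 CPM in CDH11+/+ libraries (log2 fold change 0.19 ± 0.06, adjusted p = 0.224, edgeR). *Ppl* averaged 72.7 ± 6.41 CPM in CDH11-/- libraries and 64.3 ± 1.77 CPM in CDH11+/+ libraries (0.18 ± 0.07, adjusted p = 0.288, edgeR). The median of the 11 was 0.06, equal to that of the 4 desmosome genes *Dsg2*, *Dsc2*, *Dsp* and *Pkp2* at this rounding.

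Genes that degrade β-catenin, bind it in the nucleus or respond to it were tested as 24 genes, and 0 passed the adjusted threshold in edgeR, 1 in DESeq2 and 1 in limma-voom. An unadjusted p under 0.05 was found for 3 of the 24, against 14.1% of all genes tested. The gene of smallest p was *Nkd1*, an inhibitor of Wnt signalling that Wnt itself induces. *Nkd1* had 28.2, 23.9, 26.7 and 22.4 CPM in CDH11-/- libraries, against 20.9, 12.0, 13.0 and 14.7 CPM in CDH11+/+ libraries, with no overlap. The genotypes did not overlap for 3 of the 24 genes, against 7.33% of all genes tested. Its log2 fold change was 0.75 ± 0.16, with an adjusted p of 0.0660 in edgeR, 0.00207 in DESeq2 and 0.00358 in limma-voom, and without CDH11+/+ replicate 1 it was 0.95 (adjusted p = 0.00242, edgeR). In the fit without that library 6.25% of all genes passed. *Nkd1* did not pass with any other library left out (adjusted p up to 0.204, edgeR). *Tcf7l1*, a TCF factor that binds β-catenin, averaged 12.8 ± 1.49 CPM in CDH11-/- libraries and 9.68 ± 0.700 CPM in CDH11+/+ libraries (0.40 ± 0.12, adjusted p = 0.172, edgeR). The median of the 24 was 0.11, with 17 positive, while *Ctnnb1* itself was at -0.04.

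The 10 genes were also compared with each other over the 8 libraries. After each library was centred on the mean of its genotype, 12 of the 45 pairs had a correlation over 0.5, 1 was under -0.5 and 32 lay between, with a median of 0.05. These centred correlations were not tested, and no share was computed for pairs of other genes. Without centring, the smallest Benjamini-Hochberg adjusted p for r was 0.478 (*Ctnna1* and *Dsp*, exact permutation). Both genes of a pair come from the same libraries and so share their depth and tissue makeup. By the measure of likeness used here, the Pearson correlation of log2 CPM over the 8 libraries among 12728 genes, the 5 genes most like the mean of *Dsg2*, *Dsc2*, *Dsp* and *Pkp2* were *Zfp319* (0.952), *Ganc* (0.940), *Serpina1d* (0.939), *Adcy5* (0.936) and *Rab11b* (0.923). *Serpina1d* averaged 32.4 ± 29.6 CPM in CDH11-/- libraries and 2.32 ± 0.688 CPM in CDH11+/+ libraries. It belongs to a cluster of near-identical genes, and its reads may have been split among them. The 5 most like the mean of *Ctnnb1*, *Ctnna1* and *Ctnnd1* were *Get4* (0.969), *Rbm41* (0.967), *Maea* (0.921), *Wdr46* (0.915) and *Bmp3* (0.907). The mean of the desmosome genes ranged from 4.89 to 5.05 log2 CPM in CDH11-/- libraries and from 4.83 to 4.92 in CDH11+/+ libraries, so these likenesses rest on small differences in that mean. Within genotypes its genes ran from -0.457 (*Dsg2* and *Dsp*) to 0.610 (*Dsc2* and *Dsp*) with each other. The genes named are the highest of 12728 over 8 libraries, a selection that by itself yields high correlations, and no p was computed.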

How the data were processed

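RNA of whole frozen kidneys was measured in 8 libraries, grouped by the genotype label. The labels number no replicates, and the numbers used here follow the order of deposit. Per the labels' protocols, RNA was extracted with Trizol and a column, and the library kit keeps strand. The submitters' processing notes name mm10, DRAGEN and DESeq2, and the sources used here do not give versions, annotation release or the use of strand in counting. The authors deposited 2 tables: counts, whole numbers per Ensembl gene, and normalized values, a signal in which each count was divided by its own factor for gene and library (33.1% of factors lay within 1% of their library's median). The counts may therefore be rounded estimates; they were analysed as deposited. The table names 42170 of 42256 identifiers, and 0 columns belonged to other samples.

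Counts were tested with edgeR 4.0.16 (R 4.3.3): filterByExpr, TMM scaling, glmQLFit with robust estimation and glmQLFTest on genotype alone, with Benjamini-Hochberg adjustment over 15852 genes and a threshold of 0.05. The biological coefficient of variation was 13.5%. CPM uses TMM-scaled library sizes. SEs were derived from the F statistic. Exon lengths and GRCm38 loci came from GENCODE release M21. Depth per library is given above; precision is set by 4 kidneys per genotype, and the limit from a count of 0 covers counting error only. The edgeR script was checked on simulated counts. Alternatives were DESeq2 1.42.0 and its size factors, limma 3.58.1 (voom with quality weights, and trend on log2 of the authors' normalized value plus 1), the authors' factors as edgeR offsets, library size alone, other count filters (none, or 1 CPM in 4 libraries), a threshold of 0.10 and leaving out each library.

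Named genes were the 10 genes, *Cdh11* and the 5 genes most like each of 2 means. In each of the 4 lists of junction and β-catenin genes, every gene past the threshold or otherwise the 2 of smallest p were named. The same was done with 1 gene for each of 8 marker lists. *Pkp3*, *Cdh1*, *Evpl* and the isoforms near 0 were named outside these rules as family members, and *Krt20* because it is in more than 1 list. The 10 genes and all lists were chosen with earlier results of these data known.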

Additional observations from a re-analysis of the deposited data

Results flagged for a closer look

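Within the 4 CDH11-/- libraries, *Nectin3* in replicate 4 lay apart from the others, at 59.4 CPM against 65.7 to 65.9 CPM, a gap of 0.968 of the whole range. It is below all CDH11+/+ values as well. Of 48 groups of 4 libraries examined this way, 1 stood out, and chance alone marks about 1 in 20.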

How the results depend on the processing

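For the 10 genes, 148 of 160 alternative estimates kept their direction and their side of the threshold. *Dsg2* passed it with DESeq2 (log2 fold change 0.37), with limma-voom (0.31) and without CDH11+/+ replicate 1 (0.28). The direction turned for *Ctnnb1* with library size alone (0.0071), and for *Ctnnal1* with the authors' factors as offsets (0.11) and with limma on the authors' normalized values (0.11); *Pkp2* turned with limma-voom (-0.031). The cause was not tested. Leaving out 1 library in turn gave -0.07 to -0.01 for *Ctnnb1*, 0.06 to 0.13 for *Jup*, 0.00 to 0.06 for *Ctnna1*, -0.09 to -0.01 for *Ctnnal1*, 0.01 to 0.06 for *Ctnnd1*, -0.23 to -0.07 for *Pkp4*, 0.28 to 0.42 for *Dsg2*, -0.037 to 0.084 for *Dsc2*, 0.05 to 0.18 for *Dsp* and -0.034 to 0.050 for *Pkp2*. *Dsc2* turned without CDH11+/+ replicate 4 (-0.037) and without CDH11-/- replicate 3 (-0.032), and *Pkp2* turned without CDH11+/+ replicate 1 (-0.015), CDH11+/+ replicate 3 (-0.0065) and CDH11-/- replicate 2 (-0.034).

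Counts over all genes were 59 higher and 55 lower in edgeR. They were 242 and 273 with DESeq2, 337 and 342 with limma-voom, 115 and 93 with no filter on low counts, 25 and 25 with the authors' factors, 27 and 27 with limma on the normalized values, and 135 and 150 at a threshold of 0.10. Leaving out 1 library gave 13 to 495 higher and 13 to 509 lower genes, the highest without CDH11+/+ replicate 1. Of the 64 junction genes tested, 1 was higher in edgeR, 2 with DESeq2, 3 with limma-voom, 2 with no filter, 2 at a threshold of 0.10, 0 with the authors' factors, 0 with limma on the normalized values and 0 to 5 without 1 library (5 without CDH11+/+ replicate 1). The number lower was 1 in edgeR, 0 with the authors' factors, 0 with limma on the normalized values, 0 with library size alone and 0 to 1 without 1 library. The *Cdh11* call was lost in 7 of 16 alternatives (adjusted p from 5.39e-06 to 0.545). The largest shift of the median of all genes by a scaling was 0.05. No paired analysis was possible because the labels give no replicate numbers that the genotypes share. Depth limits *Dsc2* most, at 81 to 155 counts per library.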
